A study of Homo sapiens with 15 samples.

Results

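The 40 genes described here belong to the program of the transcription factor ATF4, the transcriptional arm of the integrated stress response. They were taken by symbol and sort into 5 roles, namely transcription factors, feedback and stress effectors, enzymes of amino acid synthesis and one-carbon metabolism, amino acid transporters, and tRNA synthetases with the tRNA export factor XPOT. All 40 were found among the 60649 genes listed in each library. The study measured RNA in HSC-5, a human cutaneous squamous cell carcinoma line, after targeting the arginine methyltransferase PRMT5 or its partner WDR77. There were 15 libraries, from 5 conditions with 3 biological replicates each. The control sgNeg carried an empty vector and is given the genotype WT. sgPRMT5-1 and sgPRMT5-2, against exons of the PRMT5 catalytic domain, have the genotype PRMT5 Knockout, and sgWDR77-1 and sgWDR77-2, against the first WD repeat of WDR77, the genotype WDR77 Knockout. Neomycin is the treatment given for all 5 conditions. For its competition assays, the study's methods describe sgRNAs brought by lentivirus into cells that express Cas9. The time between infection and harvest is not stated for these libraries, and the populations are not described as clones. PRMT5KO below means the 6 libraries of both PRMT5 sgRNAs, and WDR77KO the 6 libraries of both WDR77 sgRNAs.

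As background, kinases that sense amino acid shortage, unfolded protein, viral RNA or low haem phosphorylate the translation factor eIF2, which lowers most protein synthesis but lets ATF4 be translated. ATF4 then binds composite C/EBP-ATF elements and turns on genes that import and make amino acids, charge tRNAs and feed back on the response itself. Because ATF4 is controlled largely at translation, its own mRNA need not follow its activity.

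Each library held between 5146711 and 6730428 reads assigned to genes. Levels are given as CPM after TMM scaling, with scaling factors from 0.956 to 1.05. The share of reads that fell on no annotated feature ranged from 2.75% to 7.16% and was highest in sgNeg replicate 2, where mitochondrial transcripts took 2.54% of the gene reads. It stood at 6.04% and 5.70% in sgWDR77-1 replicates 2 and 3. By condition the mean share on no feature was 4.52 ± 2.32% in sgNeg and 5.10 ± 1.34% in sgWDR77-1, against 3.15 ± 0.3496% in sgPRMT5-1, 4.14 ± 0.116% in sgPRMT5-2 and 3.79 ± 0.236% in sgWDR77-2 (SD, n = 3). The part of these differences in the results was not tested, and the counts of members are given below with and without each library that moves them by over 1.5 times. Of the 8 squamous keratinocyte markers, TP63 lay between 311 and 528 CPM and KRT17 between 690.4 and 1453 CPM in every library, while KRT14, a defining basal keratin, was nearly absent at 1 to 4 reads. The 8 markers summed to 2909 to 3386 CPM (sgNeg), 2750 to 3122 (sgPRMT5-1), 2380 to 2483 (sgPRMT5-2), 2413 to 2808 (sgWDR77-1) and 3212 to 3381 (sgWDR77-2), with KRT17 the most abundant except in sgWDR77-1 replicate 1, where PERP was. KRT5, KRT6A and DSG3 were called lower with all 4 sgRNAs, while SFN was called higher with both PRMT5 sgRNAs and sgWDR77-2, and KRT17 was higher with sgWDR77-2 (0.82 ± 0.07, adjusted p = 1.23e-05). KRT5, the partner of KRT14, was at 512, 638 and 817 CPM (sgNeg), 335, 249.7 and 227 (sgPRMT5-1), 61.2, 52.2 and 54.1 (sgPRMT5-2), 43.4, 42.8 and 33.8 (sgWDR77-1) and 101, 90.98 and 81.9 (sgWDR77-2). KRT5 lay lower in every knockout library than in every sgNeg library, at -2.41 ± 0.47 on the log2 scale for PRMT5KO (adjusted p = 0.006501) against -3.42 ± 0.27 for WDR77KO (adjusted p = 1.59e-06). Of the markers of other cells, the 3 leukocyte genes PTPRC, CD3E and LYZ gave at most 1 read a library and CD3E was at 0 throughout. The 3 fibroblast genes summed to 6.68 to 15.9 CPM, nearly all of it COL1A1, the 2 endothelial genes to 12.3 to 34.1 CPM, nearly all of it CDH5, and the 2 melanocyte genes to 2.55 to 7.48 CPM, most of it PMEL except in sgPRMT5-2 replicate 2. CDH5 was higher with sgWDR77-1 by 0.83 ± 0.18 on the log2 scale (adjusted p = 0.0271) and PMEL lower in PRMT5KO (-1.13 ± 0.35, adjusted p = 0.0391), and the part of these markers in the results below was not tested.

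The targeted transcripts were lowered but not lost. PRMT5 was at 59.1, 49.6 and 67.8 CPM (sgNeg), 33.00, 35.8 and 41.4 (sgPRMT5-1), 44.1, 44.5 and 39.4 (sgPRMT5-2), 54.5, 64.2 and 54.4 (sgWDR77-1) and 79.9, 65.2 and 64.4 (sgWDR77-2). All 6 PRMT5KO libraries lay below all 3 sgNeg libraries, and the log2 fold change was -0.57 ± 0.12 (SE, adjusted p = 0.00874). WDR77 was at 125, 114 and 119 CPM (sgNeg), 134, 119 and 156 (sgPRMT5-1), 126, 129.9 and 119 (sgPRMT5-2), 30.8, 52.01 and 53.3 (sgWDR77-1) and 26.6, 24.9 and 21.96 (sgWDR77-2). All 6 WDR77KO libraries lay below sgNeg by more (-1.86 ± 0.22, adjusted p = 9.00e-05), and sgWDR77-2 reached the lowest levels. About 28.2% of the exonic bases of PRMT5 and 28.4% of those of WDR77 are shared with other genes. An edited gene can still be transcribed, so these levels do not measure the loss of protein. By Western blot, the study reports that depleting either gene lowered both proteins.

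Per length of exon, the 40 genes spanned more than 1000-fold in the control cells, a span that rests on NUPR1 alone at the low end. On the scale of CPM per kilobase, the sgNeg means ran from 284 for SLC7A5, 242 for DDIT4, 214 for ATF4 and 140.5 for SLC38A2 through 104 for TARS1 down to 0.991 for SESN2, 0.844 for VLDLR, 0.839 for ALDH1L2, 0.605 for ASNS and 0.0723 for NUPR1. The transporters for large and small neutral amino acids, the mTORC1 brake DDIT4 and ATF4 itself were thus the most abundant members. The asparagine synthetase gene ASNS, a classical ATF4 target, was among the lowest on this scale. Its length includes the 49.3% of exonic bases shared with a gene on the same strand, so its level may be understated. The 40 genes sit on 17 chromosomes, with 6 of them on chromosome 12, where DDIT3 and MARS1 overlap on opposite strands. By GENCODE release 44, 21 members share no exonic base with another gene and 9 share over 10%, led by ASNS (49.3%, with a gene on the same strand), DDIT3 (39.6%), SLC1A5 (23.8%) and ATF5 (22.1%), and reads there may have been set aside as ambiguous.

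In PRMT5KO, which pools both sgRNAs with no term for the sgRNA, much of the program was higher. Far fewer members were called with sgPRMT5-1 alone than with sgPRMT5-2, as given below. Of the 39 members that passed the filter on low counts, 22 were higher than in sgNeg and 1 was lower at an adjusted p under 0.05 (limma voom), where 8.73% of all 14071 genes tested were higher and 8.3% were lower. The median log2 fold change of the 39 members was 0.30, against -0.01 for all genes. Every role took part, with 2 of 5 transcription factors, 4 of 7 effectors, 3 of 7 enzymes, 4 of 7 transporters and 9 of 13 synthetase and export genes higher. The changes were modest, since the largest rise was 1.18 on the log2 scale for SESN2 and most lay between 0.2 and 0.6. The count leaned on sgNeg replicates 1 and 2: it was 3 without sgNeg replicate 1 (1.12% of all genes higher) and 6 without sgNeg replicate 2 (1.47%). It was 19 without sgNeg replicate 3 (3.68%) and 18 without sgPRMT5-1 replicate 3 (5.92%). Without sgPRMT5-2 replicate 1, 2 and 3 it was 17, 16 and 16 (4.69%, 4.32% and 4.92%). Without sgPRMT5-1 replicate 1 or 2 it was 25 or 23, where 13% or 11% of all genes were higher. SARS1, TARS1 and EPRS1 were called under each of the 17 alternatives tried. The 1 lower call, ALDH1L2, was lost without any of the sgNeg or sgPRMT5-2 libraries or sgPRMT5-1 replicate 3. Without sgPRMT5-1 replicate 1 or 2, 2 members were lower, where 12.3% or 11.2% of all genes were. When library totals alone set the scale, 781 genes were higher and 1517 lower in place of 1229 and 1168, and 16 members were higher and 1 lower. With the sgRNAs as separate groups, 27 members were higher and 3 lower, where 15.7% and 15.2% of all genes were.

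WDR77KO changed few of these genes. STC2 and LARS1 were higher and DDIT4 and ALDH1L2 lower among 40 members tested, where 0.838% of 14073 genes were higher and 2.55% lower. At an unadjusted p under 0.05, 7 members were higher and 2 lower, where 928 of all genes were higher and 1346 lower. The median log2 fold change of the members was 0.15, against 0.00 for all genes. DDIT4 and ALDH1L2 were lower under each of the 17 alternatives. The count of higher members was 0 without any of the sgNeg libraries or sgWDR77-2 replicate 2, and 5 without sgWDR77-1 replicate 1. It was 1 without sgWDR77-1 replicate 2 or 3 or sgWDR77-2 replicate 3. The share of all genes higher ran from 0.142% to 1.52% without a library. By chi-square per degree of freedom, a measure of how far libraries differ, sgWDR77-1 replicate 1 stood at 12.5 and 17.7 from replicates 2 and 3. Those were at 3.21 from each other. The comparisons of PRMT5KO and WDR77KO with sgNeg share the 3 sgNeg libraries. STC2, LARS1 and ALDH1L2 passed in both, while for DDIT4 the value in PRMT5KO was -0.54 ± 0.20 (adjusted p = 0.0719).

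Taken by sgRNA, the largest count of changed members came with sgPRMT5-2. With sgPRMT5-2, 29 of 39 members were higher and 3 lower, where 20.9% of 14184 genes were higher and 19.3% lower, and these counts stayed within 25 to 30 and at 3 on leaving out any library. With sgPRMT5-1, 5 of 39 were higher, namely STC2, SLC7A5, SARS1, TARS1 and IARS1, and 0 were lower, where 1.52% of 14102 genes were higher and 2.24% lower. All 5 were higher with sgPRMT5-2 as well. At an unadjusted p under 0.05 sgPRMT5-1 gave 23 members higher and 0 lower, where 1407 of all genes were higher and 1314 lower, and limma-trend called 7 and 0 members. Its 5 became 0 without sgNeg replicate 1, 1 without sgNeg replicate 2 and 9 without sgNeg replicate 3. They became 3, 2 and 2 without sgPRMT5-1 replicate 1, 2 and 3, and 16 with no filter on low counts. The share of all genes higher ran from 0.558% to 1.32% without a library and was 1.77% with no filter. With library totals alone 3 were higher, and with all 15 libraries in 1 fit 2 were. With sgWDR77-2, 4 of 40 were higher (TRIB3, PPP1R15A, STC2 and LARS1) and 2 lower (DDIT4 and ALDH1L2), where 1.89% of 14038 genes were higher and 3.08% lower. The 4 became 2 without sgNeg replicate 1 or 2, where TRIB3 and PPP1R15A were lost, and without sgWDR77-2 replicate 2, where TRIB3 and LARS1 were. In these fits 1.14%, 0.926% and 0.747% of all genes were higher. With sgWDR77-1, limma voom called 0 of 40 higher and 1 lower, DDIT4, where 1.04% of 14202 genes were higher and 1.67% lower. Limma-trend also gave 0 and 1, and 6 members were higher and 4 lower at an unadjusted p under 0.05, where 1236 of all genes were higher and 1279 lower. Leaving out sgWDR77-1 replicate 1 brought 5 higher calls, where 2.98% of all genes were higher. The DDIT4 call was lost (0 lower) without any of the sgNeg libraries or sgWDR77-1 replicate 2. All 4 of these comparisons share the sgNeg libraries.

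**Figure D1:**
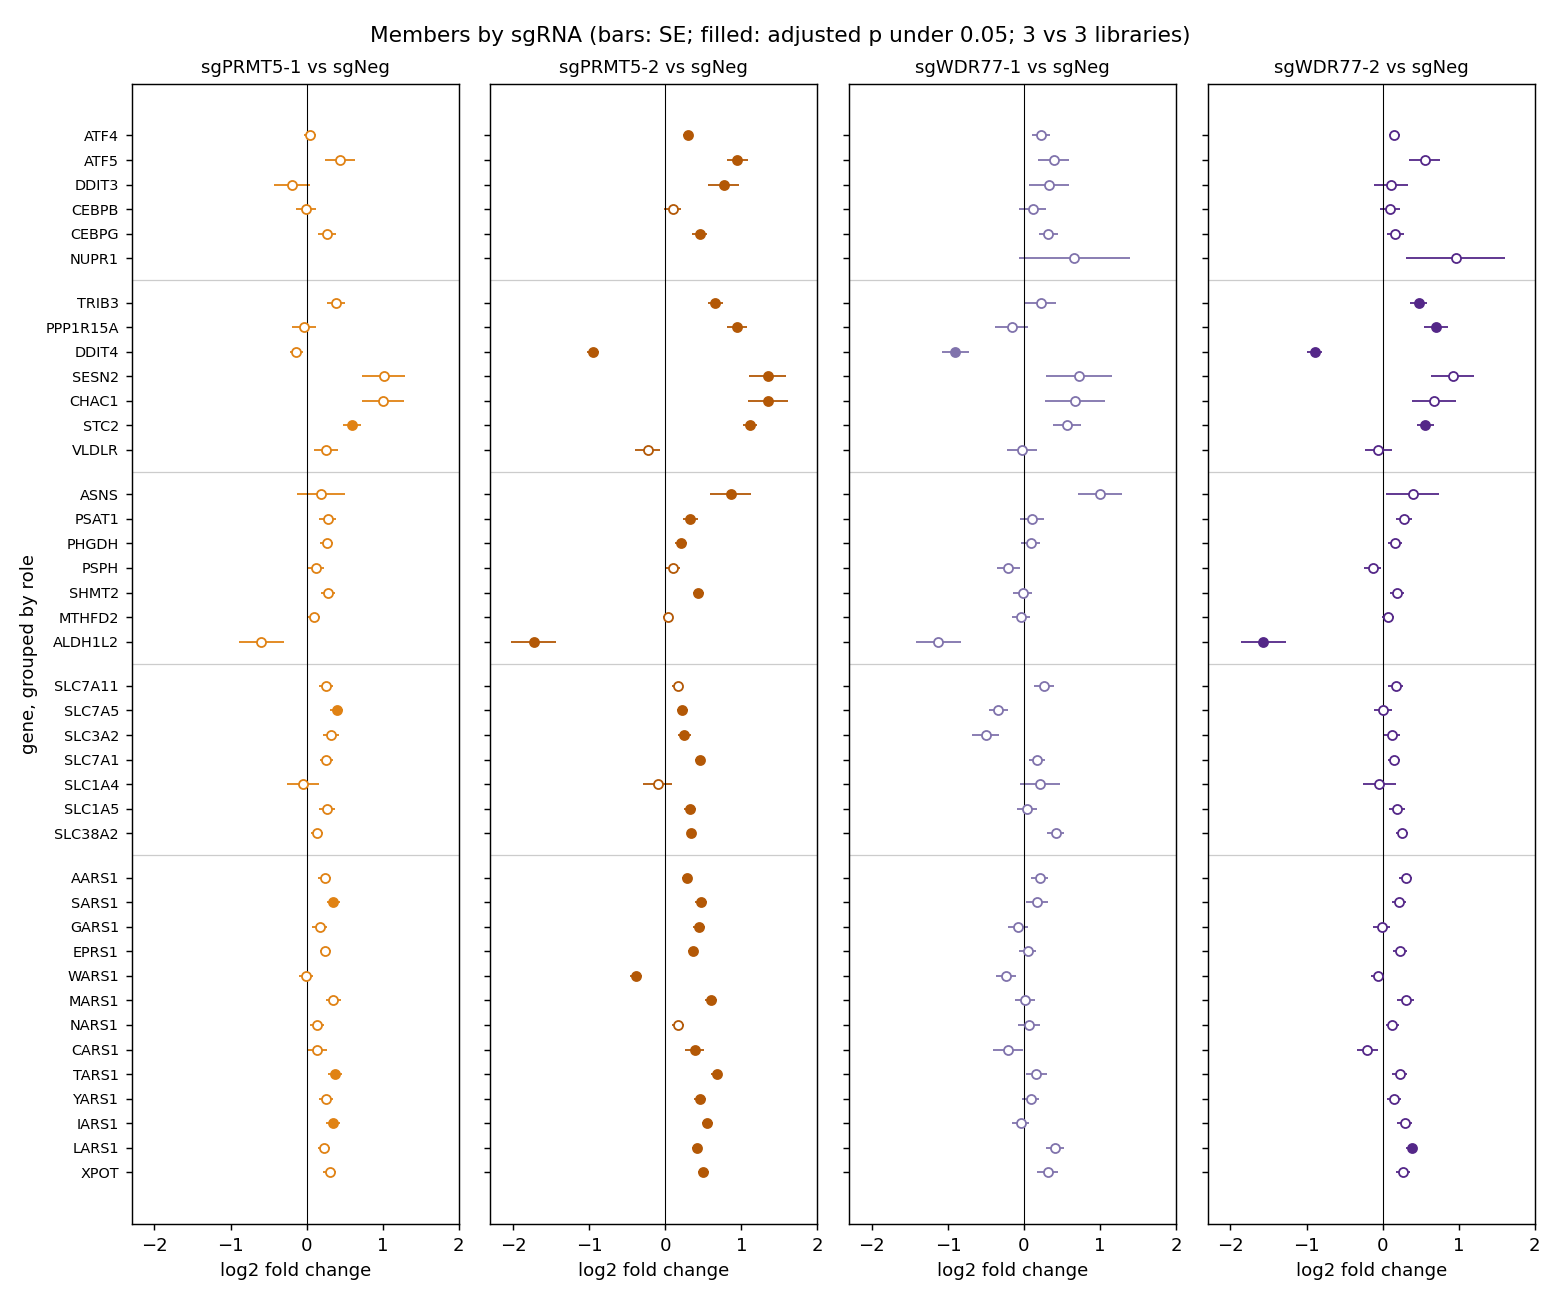
Log2 fold change against sgNeg of each member (vertical axis, grouped by role) for the 4 sgRNAs, with 3 libraries against 3; bars are SE and filled points have an adjusted p under 0.05. Filled points are most frequent with sgPRMT5-2, where 29 members were higher and 3 lower.

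Among the transcription factors, ATF5 and CEBPG rose in PRMT5KO, while ATF4 mRNA passed with sgPRMT5-2 and not in PRMT5KO. ATF4 (ENSG00000128272.17, chr22:39519695-39522683 in GRCh38) was at 555, 539 and 580.4 CPM (sgNeg), 545, 597 and 604 (sgPRMT5-1), 669, 679 and 725 (sgPRMT5-2), 619, 573 and 734 (sgWDR77-1) and 617, 621 and 636 (sgWDR77-2). The 3 sgPRMT5-2 libraries and the 3 sgWDR77-2 libraries lay above all sgNeg libraries, whereas the others overlapped with them. Its log2 fold change was 0.30 ± 0.06 with sgPRMT5-2 (adjusted p = 0.000643), 0.17 ± 0.08 in PRMT5KO (0.172) and 0.18 ± 0.09 in WDR77KO (0.361), with adjusted p from 0.0259 to 0.374 over the alternatives for PRMT5KO and a call without sgPRMT5-1 replicate 1 or with the sgRNAs as separate groups. DDIT3, which encodes the CHOP factor tied to death under lasting stress, was at 6.603, 5.42 and 7.26 CPM (sgNeg), 5.35, 6.45 and 5.14 (sgPRMT5-1), 9.95, 12.2 and 10.8 (sgPRMT5-2), 7.57, 6.11 and 10.4 (sgWDR77-1) and 7.12, 6.71 and 6.84 (sgWDR77-2). The sgPRMT5-2 libraries stood clear of sgNeg, by 0.77 ± 0.20 (adjusted p = 0.004401), against -0.20 ± 0.24 with sgPRMT5-1, 0.33 ± 0.26 with sgWDR77-1 and 0.11 ± 0.23 with sgWDR77-2. ATF5, a relative of ATF4 that is also controlled at translation, was at 22.2, 18.2 and 30.3 CPM (sgNeg), 25.2, 29.4 and 43.7 (sgPRMT5-1), 43.1, 46.6 and 43.99 (sgPRMT5-2), 37.3, 25.4 and 27.2 (sgWDR77-1) and 47.9, 28.1 and 29.3 (sgWDR77-2). It was higher in PRMT5KO by 0.70 ± 0.22 (adjusted p = 0.0446) and with sgPRMT5-2 by 0.95 ± 0.14 (adjusted p = 1.59e-05). The PRMT5KO call was lost without any of the sgNeg or sgPRMT5-2 libraries or sgPRMT5-1 replicate 3, with adjusted p from 0.00179 to 0.208 over the alternatives. In WDR77KO the log2 fold change of ATF5 was 0.46 ± 0.20 (adjusted p = 0.259). CEBPG, a dimer partner of ATF4, was at 39.3, 35.5 and 41.2 CPM (sgNeg), 44.6, 50.1 and 46.4 (sgPRMT5-1), 55.2, 53.9 and 50.1 (sgPRMT5-2), 46.5, 47.9 and 47.1 (sgWDR77-1) and 42.9, 47.2 and 40.5 (sgWDR77-2). All 6 PRMT5KO libraries and the 3 sgWDR77-1 libraries exceeded sgNeg, with 0.36 ± 0.10 in PRMT5KO (adjusted p = 0.02698) against 0.23 ± 0.11 for WDR77KO (adjusted p = 0.311). Without any of the sgNeg or sgPRMT5-2 libraries the PRMT5KO call of CEBPG was lost, with adjusted p from 0.00376 to 0.124 over the alternatives. CEBPB, another C/EBP factor, passed in none of the 4 sgRNA comparisons and lay at 0.04 in PRMT5KO and 0.10 in WDR77KO. NUPR1, a small chromatin protein induced by stress, had 0 to 10 reads a library and could be tested only where WDR77 libraries took part, with 0.80 ± 0.64 in WDR77KO (adjusted p = 0.604).

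In PRMT5KO the feedback and stress effectors held the largest rises. STC2 (ENSG00000113739.11, chr5:173314723-173328447), a secreted glycoprotein, was at 83.6, 83.7 and 112 CPM (sgNeg), 126, 137 and 161 (sgPRMT5-1), 192, 202 and 207 (sgPRMT5-2), 118, 111 and 183 (sgWDR77-1) and 148, 128 and 136 (sgWDR77-2). All 6 PRMT5KO libraries lay above every sgNeg library, as did the sgWDR77-2 libraries. The log2 fold change was 0.85 ± 0.16 for PRMT5KO (adjusted p = 0.006501), 0.59 ± 0.12 with sgPRMT5-1 and 1.11 ± 0.09 with sgPRMT5-2, and 0.56 ± 0.15 in WDR77KO (adjusted p = 0.0491). Its WDR77KO call was close to the threshold: adjusted p ran from 0.00893 to 0.2395 over the alternatives, 8 of 17 kept it, and it was lost without any of the sgNeg or sgWDR77-2 libraries or sgWDR77-1 replicate 3. CHAC1, which degrades glutathione, was at 2.88, 2.63 and 4.53 CPM (sgNeg), 7.03, 6.28 and 6.51 (sgPRMT5-1), 8.71, 8.67 and 7.78 (sgPRMT5-2), 3.69, 3.89 and 9.12 (sgWDR77-1) and 5.39, 5.12 and 5.22 (sgWDR77-2). Its levels in PRMT5KO all exceeded those in sgNeg (1.17 ± 0.24, adjusted p = 0.00889), and sgWDR77-1 replicate 3 stood apart from the other WDR77 libraries. SESN2, which restrains mTORC1 and senses leucine, was at 3.56, 3.29 and 3.45 CPM (sgNeg), 6.26, 5.94 and 9.76 (sgPRMT5-1), 8.86, 10.03 and 7.95 (sgPRMT5-2), 2.59, 6.85 and 9.67 (sgWDR77-1) and 7.12, 7.95 and 5.04 (sgWDR77-2). Again all 6 PRMT5KO libraries were higher (1.18 ± 0.26, adjusted p = 0.0113), while sgWDR77-1 replicate 1 lay below sgNeg, and without that library SESN2 and TRIB3 were called in WDR77KO. TRIB3, a pseudokinase that feeds back on ATF4, was at 47.2, 49.1 and 59.5 CPM (sgNeg), 63.1, 66.5 and 76.2 (sgPRMT5-1), 78.5, 86.7 and 80.9 (sgPRMT5-2), 41.6, 59.2 and 82.7 (sgWDR77-1) and 78.4, 72.1 and 66.8 (sgWDR77-2). It rose in PRMT5KO (0.52 ± 0.12, adjusted p = 0.0124) and with sgWDR77-2 (0.48 ± 0.11, adjusted p = 0.0233), and the 3 sgWDR77-1 libraries ranged from below to above sgNeg. The sgWDR77-2 call was lost without sgNeg replicate 1 or 2 or sgWDR77-2 replicate 2, and with all 15 libraries in 1 fit. Without sgNeg replicate 1 the PRMT5KO calls of STC2, CHAC1, SESN2 and TRIB3 were lost, the last 3 also without sgNeg replicate 2, with adjusted p from 7.40e-07 to 0.0549, 0.000648 to 0.0597, 0.000888 to 0.0621 and 0.000189 to 0.0817 over the alternatives.

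DDIT4 (ENSG00000168209.6, chr10:72273919-72276036), which also restrains mTORC1, fell in WDR77KO and with sgPRMT5-2. Its levels were 576, 487 and 475 CPM (sgNeg), 470.3, 519 and 425 (sgPRMT5-1), 269, 254 and 274 (sgPRMT5-2), 200.4, 267 and 358 (sgWDR77-1) and 249.6, 288 and 293 (sgWDR77-2). The sgPRMT5-1 libraries overlapped with sgNeg, while the other 9 knockout libraries all lay below it. The log2 fold change was -0.91 ± 0.14 in WDR77KO (adjusted p = 0.00139), -0.90 ± 0.17 with sgWDR77-1, -0.89 ± 0.09 with sgWDR77-2 and -0.95 ± 0.07 with sgPRMT5-2 (adjusted p = 7.39e-09), but -0.14 ± 0.09 with sgPRMT5-1 (adjusted p = 0.433). In PRMT5KO it was called without sgPRMT5-1 replicate 1 or 2 and under 3 other settings, with adjusted p from 4.29e-06 to 0.227 over the alternatives. DDIT4 was thus the 1 member called lower with both WDR77 sgRNAs. PPP1R15A, which brings a phosphatase to eIF2, rose with sgPRMT5-2 (0.94 ± 0.13, adjusted p = 1.05e-05) and with sgWDR77-2 (0.70 ± 0.16, adjusted p = 0.0162), the latter call being lost without sgNeg replicate 1 or 2. For the other sgRNA of each gene its log2 fold change was -0.04 ± 0.16 with sgPRMT5-1 and -0.16 ± 0.21 with sgWDR77-1. VLDLR, a lipoprotein receptor, lay at 0.01 in PRMT5KO and -0.05 in WDR77KO and passed with no sgRNA against sgNeg.

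**Figure D2:**
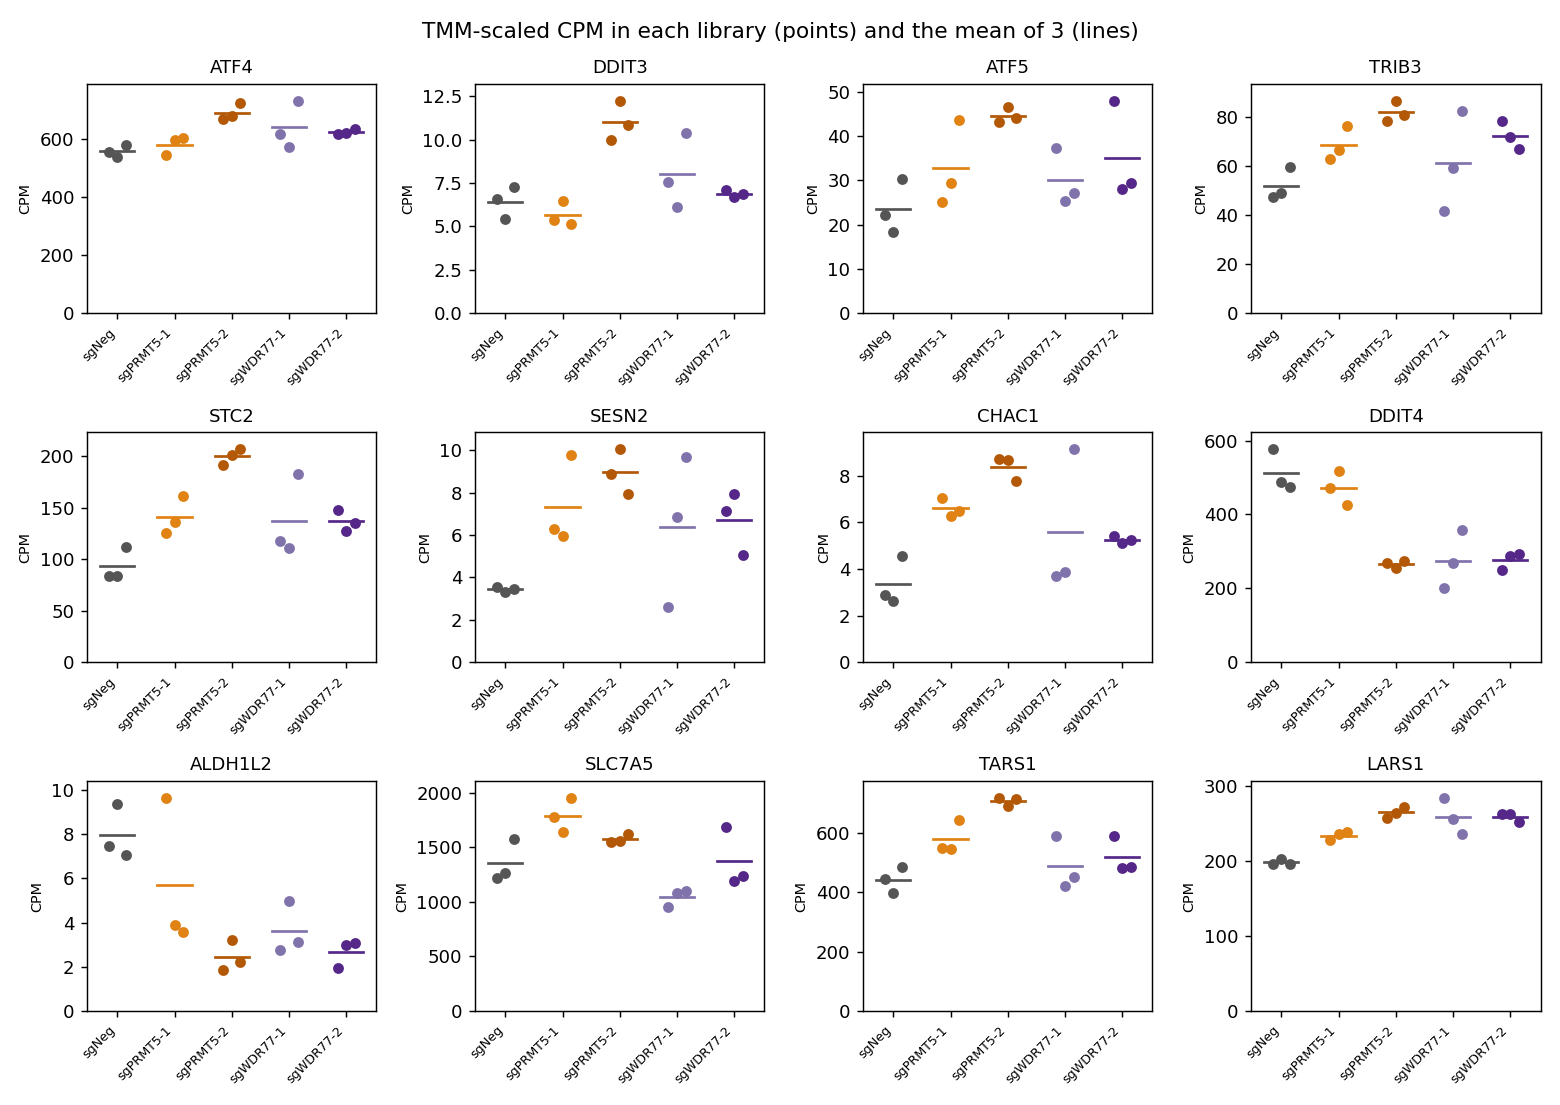
TMM-scaled CPM in each library (points, vertical axis from 0) for 12 members in the 5 conditions, with the mean of 3 libraries as a line. DDIT4 and ALDH1L2 are low in most knockout libraries, while STC2 and LARS1 are raised.

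Of the 7 enzymes, PHGDH, PSAT1 and SHMT2 rose in PRMT5KO, ALDH1L2 fell and the other 3 did not pass, where 8.73% of all genes were higher and 8.3% lower. SHMT2, which makes glycine and one-carbon units in mitochondria, was at 309, 271 and 332 CPM (sgNeg), 345, 360.2 and 409.6 (sgPRMT5-1), 408, 413 and 412 (sgPRMT5-2), 262, 283 and 339.9 (sgWDR77-1) and 381, 343 and 319.7 (sgWDR77-2). All 6 PRMT5KO libraries exceeded sgNeg (0.35 ± 0.08, adjusted p = 0.0147), and the WDR77 libraries overlapped with it (0.08 ± 0.12). PHGDH, the entry enzyme of serine synthesis, was at 357, 320.2 and 401 CPM (sgNeg), 443, 419 and 439 (sgPRMT5-1), 398, 425 and 423 (sgPRMT5-2), 342, 360.4 and 421 (sgWDR77-1) and 411, 418 and 379 (sgWDR77-2). It was higher in PRMT5KO by 0.23 ± 0.07 (adjusted p = 0.0391), although sgNeg replicate 3 reached the level of the lowest sgPRMT5-2 library. PSAT1, the next enzyme of that path, was at 115, 119 and 156 CPM (sgNeg), 158, 149 and 164 (sgPRMT5-1), 149, 164 and 174 (sgPRMT5-2), 124, 119 and 169.7 (sgWDR77-1) and 163, 152 and 156 (sgWDR77-2). Its rise in PRMT5KO was 0.30 ± 0.10 (adjusted p = 0.0482), against 0.19 ± 0.13 in WDR77KO (adjusted p = 0.546), and sgNeg replicate 3 overlapped with the knockouts. Without sgNeg replicate 1 or 2 the calls of all 3 were lost, with adjusted p from 0.000476 to 0.0909 for SHMT2, 0.00808 to 0.184 for PHGDH and 0.0108 to 0.228 for PSAT1. PHGDH also lost its call without sgPRMT5-1 replicate 3 or sgPRMT5-2 replicate 2 or 3, and PSAT1 without sgPRMT5-1 replicate 3 or any sgPRMT5-2 library. ALDH1L2 (ENSG00000136010.14, chr12:105019784-105107643), which oxidizes formyl-folate in mitochondria, was at 7.45, 9.37 and 7.07 CPM (sgNeg), 9.63, 3.904 and 3.596 (sgPRMT5-1), 1.87, 3.23 and 2.200 (sgPRMT5-2), 2.77, 4.998 and 3.102 (sgWDR77-1) and 1.93, 3.003 and 3.06 (sgWDR77-2). Only sgPRMT5-1 replicate 1 kept the level of the control, and the other 11 knockout libraries lay below it. The log2 fold change was -1.36 ± 0.25 in WDR77KO (adjusted p = 0.00565), -1.17 ± 0.34 in PRMT5KO (adjusted p = 0.0325, from 0.00171 to 0.129 over the alternatives) and -1.73 ± 0.29 with sgPRMT5-2 (adjusted p = 9.94e-05). ASNS, which makes asparagine, was at 2.88, 3.29 and 2.72 CPM (sgNeg), 4.13, 2.55 and 3.77 (sgPRMT5-1), 5.13, 5.78 and 5.58 (sgPRMT5-2), 5.17, 6.11 and 6.39 (sgWDR77-1) and 4.62, 2.47 and 5.401 (sgWDR77-2). It passed with sgPRMT5-2 (0.86 ± 0.27, adjusted p = 0.0151), although the sgWDR77-1 libraries too stood above sgNeg (1.00 ± 0.29, adjusted p = 0.0884), and these values rest on 14 to 35 reads a library. PSPH, the last enzyme of serine synthesis, lay at 0.11 in PRMT5KO and -0.18 in WDR77KO, and MTHFD2, a mitochondrial folate enzyme, at 0.06 and 0.00.

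Of the 7 transporter genes 4 rose in PRMT5KO, where 8.73% of all genes were higher. They serve large neutral amino acids, cationic ones and glutamine. SLC7A5, the light chain of the large neutral transporter, was at 1219, 1266 and 1576 CPM (sgNeg), 1778, 1639.8 and 1948 (sgPRMT5-1), 1552, 1559 and 1624 (sgPRMT5-2), 950.4, 1084 and 1102 (sgWDR77-1) and 1685, 1195 and 1238 (sgWDR77-2). The sgPRMT5-1 libraries exceeded sgNeg, and the sgWDR77-1 libraries lay below it. Its log2 fold change was 0.31 ± 0.09 for PRMT5KO (adjusted p = 0.0299) against -0.18 ± 0.14 for WDR77KO (adjusted p = 0.608). SLC3A2, its heavy chain, had 0.28 ± 0.09 in PRMT5KO (adjusted p = 0.0461), -0.20 ± 0.20 in WDR77KO and -0.50 ± 0.18 with sgWDR77-1. SLC7A1, a transporter of arginine and lysine, was at 291, 296 and 305 CPM (sgNeg), 336, 347 and 399.8 (sgPRMT5-1), 427, 404 and 398 (sgPRMT5-2), 322, 326 and 338 (sgWDR77-1) and 356, 321 and 319.9 (sgWDR77-2). Every knockout library stood above every sgNeg library, and the difference passed in PRMT5KO (0.36 ± 0.08, adjusted p = 0.0126) but not in WDR77KO (0.15 ± 0.08, adjusted p = 0.4005). SLC1A5, which carries glutamine, was at 141, 136 and 171 CPM (sgNeg), 173, 164 and 205 (sgPRMT5-1), 185, 187 and 189.8 (sgPRMT5-2), 137, 142 and 173 (sgWDR77-1) and 197, 161 and 155 (sgWDR77-2). It rose in PRMT5KO by 0.29 ± 0.09 (adjusted p = 0.0378), with sgNeg replicate 3 among the knockout levels. Without sgNeg replicate 1 or 2 the calls of SLC7A5, SLC3A2, SLC7A1 and SLC1A5 were lost, and those of SLC3A2 and SLC1A5 also without sgPRMT5-1 replicate 3 or any sgPRMT5-2 library. Over the alternatives adjusted p ran from 0.00146 to 0.1504 for SLC7A5, 0.000177 to 0.0766 for SLC7A1 and 0.00722 to 0.167 for SLC1A5. SLC3A2 was not called by limma-trend or with all 15 libraries in 1 fit. With library totals alone the calls of SLC7A5, SLC3A2 and SLC1A5 were lost. SLC38A2, a carrier of small neutral amino acids, was at 941, 911 and 891 CPM (sgNeg), 1064, 1101 and 885 (sgPRMT5-1), 1194, 1155 and 1149.7 (sgPRMT5-2), 1175, 1111 and 1315 (sgWDR77-1) and 991, 1121 and 1190.1 (sgWDR77-2). All WDR77 libraries exceeded sgNeg, and sgPRMT5-1 replicate 3 was the only knockout library below it. The log2 fold change was 0.33 ± 0.10 in WDR77KO (adjusted p = 0.0834), called without replicate 1 of either WDR77 sgRNA, and 0.24 ± 0.08 in PRMT5KO (0.05799), called without sgPRMT5-1 replicate 1 or 3, each also under 3 other settings, with adjusted p from 0.0114 to 0.323 and from 0.00402 to 0.203 over the alternatives. SLC7A11, which imports cystine for glutathione, was at 356, 420.2 and 354 CPM (sgNeg), 494, 478 and 392 (sgPRMT5-1), 446, 418 and 407 (sgPRMT5-2), 496, 416 and 418 (sgWDR77-1) and 373, 437 and 472 (sgWDR77-2). It overlapped with sgNeg for every sgRNA, at 0.21 ± 0.08 in PRMT5KO (adjusted p = 0.0993) and 0.21 ± 0.11 in WDR77KO (0.351). SLC1A4, a neutral carrier of low abundance, lay at -0.08 and 0.07.

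The tRNA synthetases, which charge each tRNA with its amino acid, were mostly higher in PRMT5KO. There 8 of the 12 rose and XPOT rose with them, where 8.73% of all genes were higher. By sgRNA, 3 of the 12 were higher with sgPRMT5-1, where 1.52% of all genes were higher, against 10 higher and 1 lower with sgPRMT5-2, where 20.9% were higher and 19.3% lower. None of the 3 calls with sgPRMT5-1 was kept without sgNeg replicate 1 or 2 or sgPRMT5-1 replicate 2 or 3. Without sgPRMT5-1 replicate 1 only that of TARS1 was kept. The median log2 fold change in PRMT5KO was 0.31 for the 12. The summed level of the 12 was 2739.7 ± 226 CPM (sgNeg), 3326 ± 184 (sgPRMT5-1), 3682 ± 40.5 (sgPRMT5-2), 2872 ± 196 (sgWDR77-1) and 3192 ± 281 (sgWDR77-2), each with its SD and n = 3. As a share of sgNeg the knockout means are 121%, 134%, 105% and 117%. In sgNeg the libraries summed to 2669, 2557 and 2993 CPM, so replicate 3 was the highest of the control, and all 6 PRMT5KO libraries lay above it. TARS1 (ENSG00000113407.14, chr5:33440696-33468091), for threonine, was at 444, 398 and 485 CPM (sgNeg), 551, 547 and 643 (sgPRMT5-1), 717, 691 and 716 (sgPRMT5-2), 590.4, 423 and 452 (sgWDR77-1) and 590.4, 482 and 486 (sgWDR77-2). Both PRMT5 sgRNAs put it clear of sgNeg, with 0.52 ± 0.10 for PRMT5KO (adjusted p = 0.00648), 0.38 ± 0.09 with sgPRMT5-1 (0.0222) and 0.68 ± 0.07 with sgPRMT5-2 (2.73e-07). The sgPRMT5-1 call was lost without sgNeg replicate 1 or 2 or sgPRMT5-1 replicate 2 or 3. SARS1, for serine, was at 232, 199 and 256 CPM (sgNeg), 286, 291 and 303 (sgPRMT5-1), 318, 310.4 and 320.0 (sgPRMT5-2), 291, 213 and 256 (sgWDR77-1) and 281, 265 and 253 (sgWDR77-2). It too stood clear of sgNeg in PRMT5KO (0.41 ± 0.08, adjusted p = 0.00648). IARS1, for isoleucine, was at 226, 236 and 275 CPM (sgNeg), 305, 298 and 344 (sgPRMT5-1), 369.5, 354 and 359 (sgPRMT5-2), 225, 240.4 and 234 (sgWDR77-1) and 339.7, 297 and 269 (sgWDR77-2). The 6 PRMT5KO libraries were the highest apart from sgWDR77-2 replicate 1 (0.45 ± 0.09, adjusted p = 0.006899). In WDR77KO the log2 fold changes were 0.18 ± 0.11 for TARS1, 0.19 ± 0.11 for SARS1 and 0.11 ± 0.12 for IARS1. LARS1, for leucine, differed from these in rising in both knockouts. It was at 196, 202 and 197 CPM (sgNeg), 228, 236 and 239 (sgPRMT5-1), 258, 265 and 272 (sgPRMT5-2), 284, 256 and 237 (sgWDR77-1) and 263, 263 and 252 (sgWDR77-2). No knockout library overlapped with sgNeg, and the log2 fold change was 0.32 ± 0.07 in PRMT5KO (adjusted p = 0.0142) against 0.39 ± 0.09 for WDR77KO (adjusted p = 0.0235), but without any of the sgNeg libraries both calls were lost, as was that in WDR77KO without replicate 2 of either WDR77 sgRNA, with adjusted p from 0.000335 to 0.0803 and 0.001300 to 0.133. AARS1, for alanine, was at 328, 332 and 374 CPM (sgNeg), 389, 402 and 439.5 (sgPRMT5-1), 423, 416 and 419 (sgPRMT5-2), 362, 384 and 425 (sgWDR77-1) and 453, 439 and 392 (sgWDR77-2). All 6 PRMT5KO libraries and the sgWDR77-2 libraries lay above sgNeg, with 0.26 ± 0.07 in PRMT5KO (adjusted p = 0.02004) and 0.25 ± 0.10 in WDR77KO (0.204). XPOT, which carries tRNA out of the nucleus, was at 297, 319.5 and 363 CPM (sgNeg), 403, 387 and 431 (sgPRMT5-1), 466, 459 and 465 (sgPRMT5-2), 478, 359 and 363 (sgWDR77-1) and 434, 389 and 364 (sgWDR77-2). The PRMT5KO libraries were all higher than sgNeg (0.40 ± 0.08, adjusted p = 0.00819), and in WDR77KO the log2 fold change was 0.28 ± 0.11 (0.1996). Without sgNeg replicate 1 the PRMT5KO calls of IARS1, XPOT and AARS1 were lost, that of AARS1 also without sgNeg replicate 2, with adjusted p from 3.91e-05 to 0.0563, 6.19e-05 to 0.0649 and 0.00267 to 0.101.

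The other synthetases that rose in PRMT5KO were MARS1 for methionine (0.48 ± 0.10), YARS1 for tyrosine (0.35 ± 0.09) and EPRS1 for glutamate and proline (0.30 ± 0.06), with adjusted p from 0.00773 to 0.0173. The calls of MARS1 and YARS1 were lost without sgNeg replicate 1 or 2, and that of EPRS1 was kept. GARS1 for glycine (0.30 ± 0.10), CARS1 for cysteine (0.26 ± 0.13) and NARS1 for asparagine (0.15 ± 0.08) did not pass there. With sgPRMT5-2, GARS1 (0.44 ± 0.08) and CARS1 (0.39 ± 0.12) did, CARS1 not without sgNeg replicate 1 or sgPRMT5-2 replicate 2 or 3. WARS1, for tryptophan, was the exception, with -0.20 ± 0.11 in PRMT5KO (adjusted p = 0.235) and a fall with sgPRMT5-2 (-0.39 ± 0.08, adjusted p = 0.000557). In WDR77KO the values were 0.15 for MARS1, 0.11 for YARS1, 0.13 for EPRS1, -0.05 for GARS1, -0.21 for CARS1, 0.09 for NARS1 and -0.16 for WARS1. About 13.3% of the exonic bases of MARS1 overlap with other genes, DDIT3 among them. In bulk RNA, fewer cells with a given level and less RNA in each cell cannot be told apart.

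**Figure D3:**
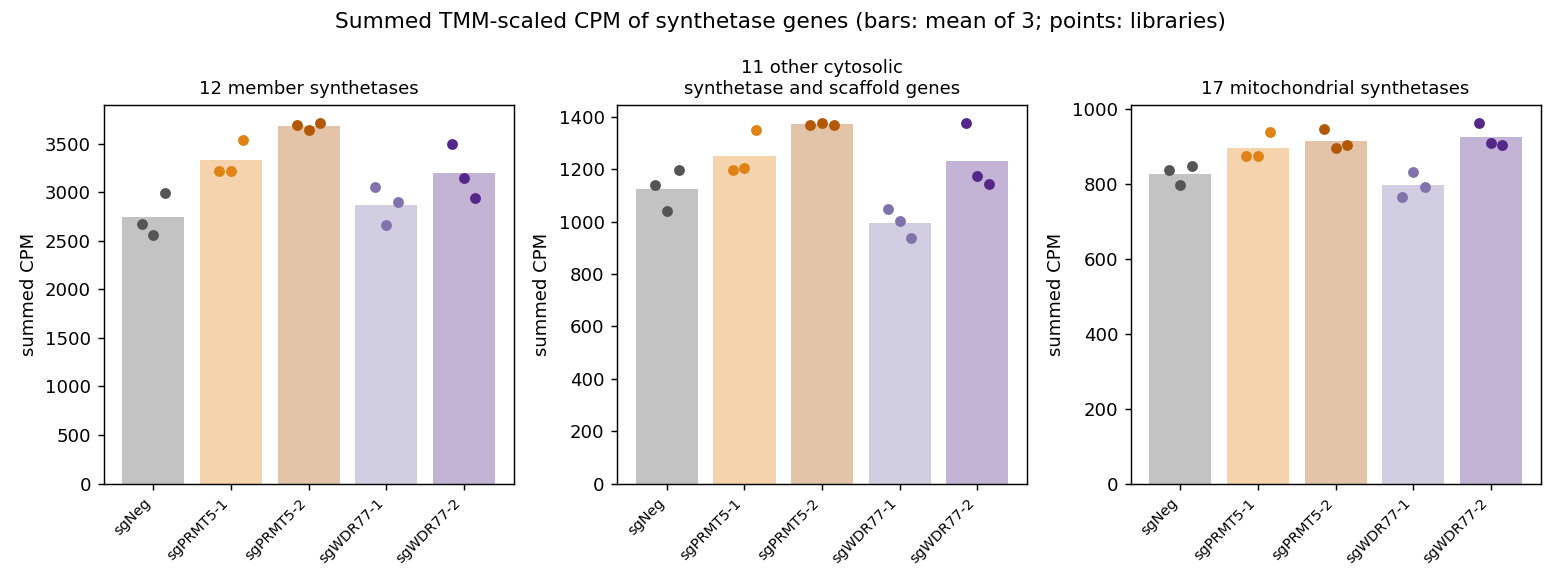
Summed TMM-scaled CPM of the 12 member synthetases, of 11 other cytosolic synthetase and scaffold genes and of 17 mitochondrial synthetases in the 5 conditions; bars are the mean of 3 libraries, points are libraries and each vertical axis starts at 0. The 12 members sum to 121% of sgNeg with sgPRMT5-1 and 134% with sgPRMT5-2.

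The promoters of the members were searched for the letters of the composite C/EBP-ATF element, TGATGNAA, and for its special case TGATGCAA, on both strands. RefSeq promoters of GRCh38.p14, from 250 bases before the start site and 50 from it on, were found for 33 of the 40 members, and not for NUPR1, PSPH, SHMT2, ALDH1L2, SLC7A11, LARS1 and YARS1. TGATGNAA occurred in 10 of the 33 (30.3%), against 1003 of 27305 promoters of all genes (3.67%), 1 for each gene. TGATGCAA, each match to which is also a match to the former, occurred in 7 of the 33 (21.2%), against 252 of all (0.923%). Of these 7, 6 were among the 11 synthetase and export genes with a promoter, namely AARS1, MARS1, NARS1, CARS1, TARS1 and IARS1, and the other was CHAC1. A match is a description of letters and not of binding. The 5 promoters shown belong to the members that both hold TGATGCAA and were higher in PRMT5KO, and in each the match lies on the opposite strand and reads TTGCATCA, in capitals. It starts 209 bases before the start site in CHAC1 (chr15:40953221-40953520, plus strand), 187 before in AARS1 (chr16:70289457-70289756, minus strand), 4 before in MARS1 (chr12:57487818-57488117, plus strand), 13 before in IARS1 (chr9:92293648-92293947, minus strand) and 2 after in TARS1 (chr5:33440715-33441014, plus strand).
CHAC1: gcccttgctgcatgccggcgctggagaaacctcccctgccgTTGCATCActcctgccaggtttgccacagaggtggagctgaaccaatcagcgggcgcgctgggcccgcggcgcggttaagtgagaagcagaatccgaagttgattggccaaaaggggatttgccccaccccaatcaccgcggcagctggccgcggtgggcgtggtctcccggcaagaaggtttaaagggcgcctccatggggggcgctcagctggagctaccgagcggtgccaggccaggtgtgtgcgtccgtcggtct
AARS1: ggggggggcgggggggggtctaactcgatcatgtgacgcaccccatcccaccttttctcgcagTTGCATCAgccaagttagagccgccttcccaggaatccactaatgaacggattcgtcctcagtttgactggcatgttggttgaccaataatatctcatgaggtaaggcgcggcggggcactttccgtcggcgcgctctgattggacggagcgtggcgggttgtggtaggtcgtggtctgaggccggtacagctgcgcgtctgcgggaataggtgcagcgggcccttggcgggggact
MARS1: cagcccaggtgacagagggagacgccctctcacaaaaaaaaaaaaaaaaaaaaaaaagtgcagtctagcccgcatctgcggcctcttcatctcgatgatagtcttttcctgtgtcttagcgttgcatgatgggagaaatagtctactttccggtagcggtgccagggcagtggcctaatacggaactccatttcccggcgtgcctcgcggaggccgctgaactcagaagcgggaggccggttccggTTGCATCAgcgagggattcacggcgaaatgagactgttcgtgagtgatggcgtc
TARS1: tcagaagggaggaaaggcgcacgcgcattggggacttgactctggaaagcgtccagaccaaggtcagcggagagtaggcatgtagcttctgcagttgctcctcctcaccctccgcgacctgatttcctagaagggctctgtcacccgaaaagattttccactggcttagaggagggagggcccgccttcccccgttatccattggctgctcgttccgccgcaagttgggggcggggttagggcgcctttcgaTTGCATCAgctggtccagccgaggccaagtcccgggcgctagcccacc
IARS1: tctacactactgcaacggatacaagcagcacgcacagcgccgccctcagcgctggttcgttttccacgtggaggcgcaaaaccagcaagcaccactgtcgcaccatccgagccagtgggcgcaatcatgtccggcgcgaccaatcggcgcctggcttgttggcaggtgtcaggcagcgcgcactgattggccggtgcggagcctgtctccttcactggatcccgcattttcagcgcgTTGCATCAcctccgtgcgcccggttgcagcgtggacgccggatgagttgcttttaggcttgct

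The sgRNAs of PRMT5 were compared with each other directly, without the control. With sgPRMT5-2, 15 of 39 members were higher than with sgPRMT5-1 and 5 were lower, where 9.94% of 13976 genes were higher and 9.31% lower. The higher ones included PPP1R15A (0.97 ± 0.09, adjusted p = 1.14e-07), DDIT3 (0.96 ± 0.20, 0.00226), STC2 (0.51 ± 0.08, 0.0001799), ATF4 (0.25 ± 0.06, 0.00355) and 6 of the 12 synthetases. The 5 lower ones were ALDH1L2 (-1.13), DDIT4 (-0.82), VLDLR (-0.50), WARS1 (-0.38) and SLC7A5 (-0.17). These counts moved with single libraries: the higher ones were 6 and 7 without sgPRMT5-1 replicate 1 and 2, and 6, 5 and 5 without sgPRMT5-2 replicate 1, 2 and 3. The lower ones were 3 without sgPRMT5-1 replicate 1, and 3, 2 and 3 without sgPRMT5-2 replicate 1, 2 and 3. On leaving out any library, 5.02% to 16.9% of all genes were higher and 5.05% to 16.7% lower. With all 15 libraries in 1 fit, 3 were higher (DDIT3, PPP1R15A and STC2) and 2 lower (DDIT4 and WARS1). With library totals alone the counts were 10 and 5. The level of the PRMT5 transcript itself was 36.8 ± 4.29 CPM with sgPRMT5-1 and 42.7 ± 2.85 CPM with sgPRMT5-2 (SD, n = 3). Between the WDR77 sgRNAs limma voom and limma-trend each called 0 of 40 members higher and 0 lower, where 0.0999% of 14011 genes were higher with sgWDR77-2 and 0.0214% lower. At an unadjusted p under 0.05, 5 members were higher and 0 lower, where 956 of all genes were higher and 802 lower. Without sgWDR77-1 replicate 1 there was 1 higher call. For PPP1R15A and TRIB3, called with sgWDR77-2 against sgNeg, the differences were 0.89 ± 0.16 (adjusted p = 0.0617) and 0.28 ± 0.20 (0.583).

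PRMT5KO and WDR77KO were also compared directly, to see whether the knockouts differ. Of 40 members, 11 were higher in PRMT5KO, where 7.99% of 14015 genes were higher and 6.01% lower. They were SLC7A5 (0.50 ± 0.11, adjusted p = 0.00739), its partner SLC3A2 (0.50 ± 0.15, 0.0313), SHMT2 (0.29), PSPH (0.30) and 7 synthetases. The 7 were CARS1 (0.48), GARS1 (0.37), TARS1 (0.36), IARS1 (0.35), MARS1 (0.34), YARS1 (0.26) and SARS1 (0.24). The calls thus lay mostly in synthetase and large neutral transporter genes, while for ATF4 the difference was 0.00 ± 0.08, for LARS1 -0.05 ± 0.07 and for AARS1 0.02 ± 0.07. Only the calls of SLC7A5 and GARS1 were kept without sgPRMT5-2 replicate 2 or 3 or sgWDR77-1 replicate 2. SLC3A2 stood at 50.4 CPM per kilobase with sgWDR77-1 and 77.9 with sgWDR77-2, against 87.5 in PRMT5KO and 71.9 in sgNeg. By limma voom 0 members were lower in PRMT5KO, with 1 at an unadjusted p under 0.05, 0 by limma-trend and 1 without sgWDR77-2 replicate 1. The 11 became 4 without sgPRMT5-1 replicate 3 and 3, 2 and 2 without sgPRMT5-2 replicate 1, 2 and 3. They became 2 and 5 without sgWDR77-1 replicate 2 and 3, and 5 and 3 without sgWDR77-2 replicate 2 and 3. Over all leave-outs of this comparison 3.19% to 11.9% of all genes were higher. With library totals alone 716 genes were higher and 1185 lower in place of 1120 and 842, and 5 members were higher.

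**Figure D4:**
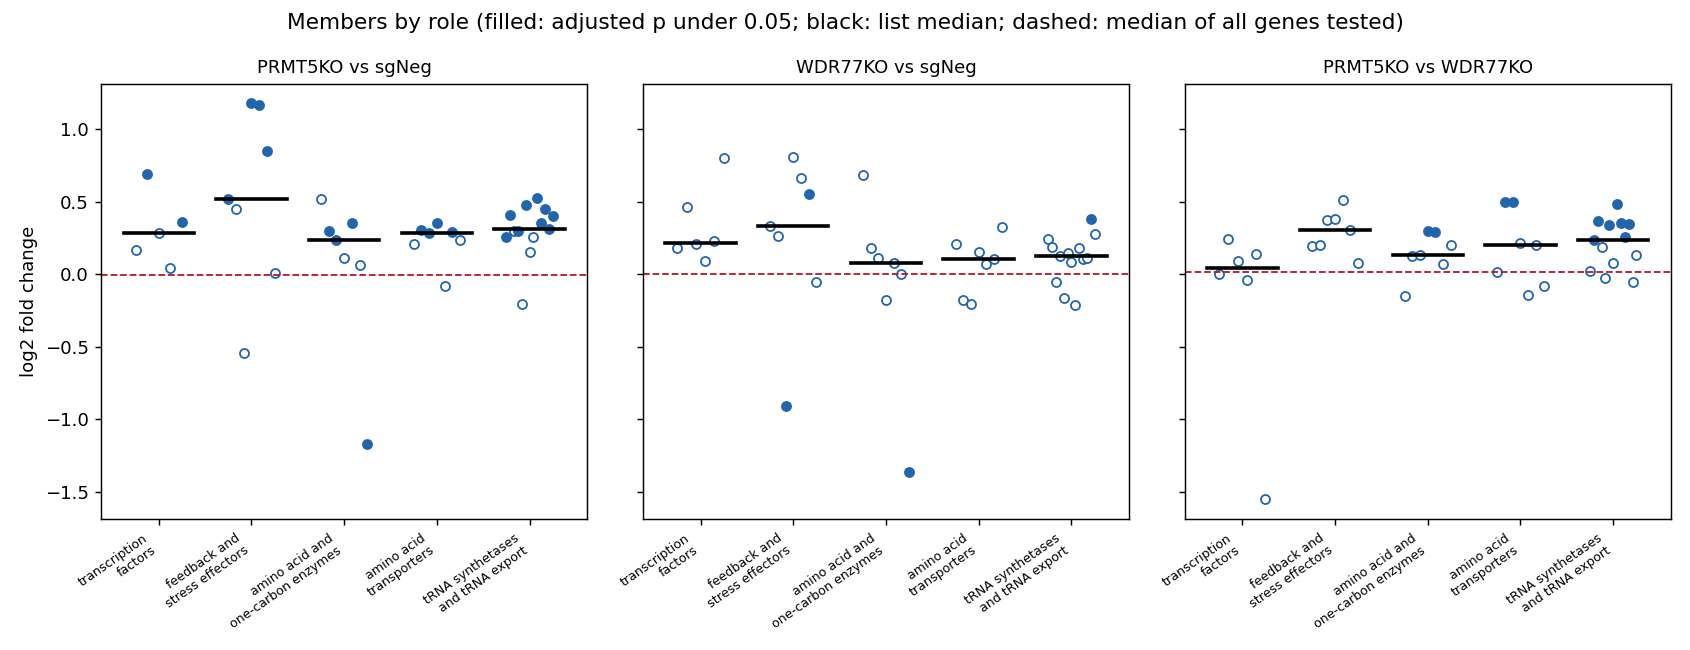
Log2 fold change of each tested member by role (horizontal axis) in PRMT5KO and WDR77KO against sgNeg and in PRMT5KO against WDR77KO; filled points have an adjusted p under 0.05, black bars are the medians of each role and the dashed line is the median of all genes tested. In PRMT5KO against sgNeg the synthetase and export genes have a median of 0.32.

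A list of 16 genes around eIF2 held its 4 kinases, 3 subunits of eIF2, 5 of its exchange factor eIF2B, the phosphatase subunit PPP1R15B and the stress-signal genes GCN1, DELE1 and OMA1. In PRMT5KO 6 of the 16 were higher and 10 did not pass, where 8.73% of all genes were higher, with a median log2 fold change of 0.21. None of the 6 calls was kept without sgNeg replicate 1 or 2. With sgPRMT5-2, 10 of the 16 were higher and 3 lower, where 20.9% of all genes were higher and 19.3% lower. With sgPRMT5-1 limma voom called 0 higher and 0 lower and limma-trend 1 and 0, and 6 and 0 were at an unadjusted p under 0.05, where 1407 and 1314 of all genes were. In WDR77KO 1 was higher and 15 did not pass, where 0.838% of all genes were higher, with a median of 0.15. EIF2S1, the subunit of eIF2 that is phosphorylated, was higher in both (0.36 ± 0.08, adjusted p = 0.0103, and 0.42 ± 0.11, adjusted p = 0.0408). EIF2B2, a subunit of the exchange factor (0.57 ± 0.13), and EIF2S3, another subunit of eIF2 (0.21 ± 0.06), rose in PRMT5KO, where their adjusted p were 0.0121 and 0.0246. The kinase genes EIF2AK3, which senses unfolded protein, and EIF2AK2, which senses double-stranded RNA, had 0.42 ± 0.13 and 0.40 ± 0.13 in WDR77KO (adjusted p = 0.1097 and 0.121). In PRMT5KO against WDR77KO 6 of the 16 were higher and 1 lower, where 7.99% of all genes were higher and 6.01% lower. The lower one was EIF2AK2 (-0.49 ± 0.11, adjusted p = 0.00752), and the higher ones were EIF2B4 (0.48), GCN1 (0.38), EIF2B2 (0.38), EIF2B3 (0.38), EIF2AK4 (0.30) and EIF2S3 (0.21). Leaving out a library gave 1 to 7 higher and 1 to 3 lower.

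Of 20 further genes known as ATF4 targets, 8 were higher and 2 lower in PRMT5KO, where 8.73% of all genes were higher and 8.3% lower. The 2 lower, 10% of the list, are near that share. Without sgNeg replicate 1 only 1.12% of all genes were higher in this comparison, and without sgNeg replicate 2 only 1.47%. The 22 higher members became 3 and 6 in those fits. How many of the 20 were still called there is not given, so the 8 are not to be set against those shares. In WDR77KO 1 of the 20 was lower, where 2.55% of all genes were. SLC38A1, a glutamine carrier (0.40 ± 0.07, adjusted p = 0.00435), VEGFA, an angiogenic growth factor (0.49 ± 0.09, 0.00648), and MTHFD1L, a mitochondrial folate enzyme (0.39 ± 0.08, 0.00888), had the smallest adjusted p in PRMT5KO. SQSTM1, an autophagy receptor, was higher in PRMT5KO by 0.59 ± 0.13 and lay at 0.30 ± 0.13 in WDR77KO (adjusted p = 0.258). GPT2, a mitochondrial alanine transaminase, was higher in PRMT5KO by 0.47 ± 0.13 and lay at 0.33 ± 0.14 in WDR77KO (adjusted p = 0.2695). EIF4EBP1, a brake on cap-dependent translation, was the gene lower in WDR77KO (-0.60 ± 0.12, adjusted p = 0.0127) and lay at 0.11 ± 0.11 in PRMT5KO. Its difference between the knockouts was 0.72 ± 0.10 (adjusted p = 0.000351).

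Of 11 other cytosolic synthetase and scaffold genes, 5 were higher, 1 was lower and 5 did not pass in PRMT5KO, where 8.73% of all genes were higher and 8.3% lower. Their median log2 fold change was 0.20, and in WDR77KO the median was 0.01. There limma voom and limma-trend each called 0 of the 11 higher and 0 lower, and 1 and 0 were at an unadjusted p under 0.05, near the share of all genes (928 of 14073 higher). Without sgNeg replicate 1 none of the 6 calls in PRMT5KO was kept. EEF1E1, a scaffold protein of the multi-synthetase complex (0.70 ± 0.15, adjusted p = 0.0108), HARS1 for histidine (0.58 ± 0.14, 0.01396) and VARS1 for valine (0.47 ± 0.11, 0.0165) had the smallest adjusted p among the 5. QARS1, for glutamine, was the gene lower in PRMT5KO (-0.28 ± 0.08, adjusted p = 0.0306). In WDR77KO the values were 0.30 ± 0.14 for HARS1, 0.33 ± 0.19 for EEF1E1 and -0.14 ± 0.10 for QARS1.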

How the data were processed

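RNA was measured in 15 libraries of HSC-5 cells. The authors used STAR for mapping on hg38 and HTSeq for counting, and the deposited values, of a unit recorded as other, are raw read counts for 60649 genes in each library. The labels and the paper name different TruSeq kits, and the strand setting is not stated. Members and lists were chosen with earlier results of these data known. TMM factors were computed, genes with a mean normalized count of at least 3 in the libraries compared were kept, and limma voom (limma 3.58.1, R 4.3.3) was fitted over the whole table for 9 comparisons, two-sided, with Benjamini-Hochberg adjustment over all genes tested and a threshold of 0.05. The authors used DESeq2, which was not run here. Errors of log2 fold changes are SE, and those of levels are SD. Levels in every library are given for ATF4, DDIT3, ASNS, TRIB3 and, in each role, the 3 members with the smallest adjusted p in PRMT5KO and in WDR77KO against sgNeg, and the same rule named genes of the other lists. Alternatives were another scaling, library totals, no filter, a minimum of 10, a replicate block, all libraries in 1 fit, separate sgRNAs, limma-trend and leaving out each library.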

Additional observations from a re-analysis of the deposited data

Results flagged for a closer look

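In the 6 libraries of each knockout, the distance of the highest or lowest library from its nearest neighbour was set against the range, for 80 groups. The cut marks about 1 in 20 groups of 6 independent values from 1 population, and 4 were marked. Each group here pools both sgRNAs of a gene and the groups share libraries, so that rate need not hold. ALDH1L2 was at 9.63 CPM in sgPRMT5-1 replicate 1, against 1.87 to 3.90 CPM in the other 5 PRMT5KO libraries. SLC3A2 was at 626 CPM in sgPRMT5-1 replicate 3, against 532 to 564 CPM in the other 5. In WDR77KO, replicate 3 of sgWDR77-1 stood apart for DDIT3, at 10.4 CPM against 6.11 to 7.57 CPM, and for CHAC1, at 9.12 CPM against 3.69 to 5.39 CPM.

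Direct tests found 31 differences among the members. With all 15 libraries in 1 fit, 5 of the 20 between the PRMT5 sgRNAs were kept. Of the 11 between PRMT5KO and WDR77KO, 2 were kept without sgPRMT5-2 replicate 2 or 3 or sgWDR77-1 replicate 2. Between sgPRMT5-2 and sgPRMT5-1, the log2 differences of higher members were 0.97 for PPP1R15A, 0.96 for DDIT3, 0.51 for STC2, 0.50 for ATF5, 0.30 for TARS1, 0.27 for TRIB3, 0.27 for GARS1 and 0.25 for ATF4. Smaller ones were 0.25 for MARS1, 0.21 for SLC38A2, 0.20 for IARS1, 0.20 for YARS1, 0.20 for SLC7A1, 0.19 for XPOT and 0.18 for LARS1. Lower members stood at -1.13 for ALDH1L2, -0.82 for DDIT4, -0.50 for VLDLR, -0.38 for WARS1 and -0.17 for SLC7A5. Between PRMT5KO and WDR77KO, the log2 differences were 0.50 for SLC3A2, 0.50 for SLC7A5, 0.48 for CARS1, 0.37 for GARS1, 0.36 for TARS1, 0.35 for IARS1, 0.34 for MARS1, 0.30 for PSPH, 0.29 for SHMT2, 0.26 for YARS1 and 0.24 for SARS1.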

How the results depend on the processing

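No log2 fold change of the 25 members with levels in every library changed sign past the threshold under the alternatives tried for PRMT5KO and for WDR77KO against sgNeg. Scaling moved the median of all genes by less than 0.1 in each comparison. Libraries share only a replicate number: 30 pairs with the same number had correlations from -0.331 to 0.271, median -0.00321, and 6 of 15 libraries correlated best with their own number. For sgPRMT5-1 against sgNeg the 3 pairs were at 0.0692 to 0.271, not all over 0.1. The replicate block is therefore given here alone. edgeR and DESeq2 alternatives were not run. Counts of members that moved by over 1.5 times are given by comparison, and the cause was not tested.

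For PRMT5KO against sgNeg, the 1 lower member became 2 with no filter, 0 with the block, 2 with all libraries in 1 fit, 3 with separate sgRNAs and 0 with limma-trend. Of all genes 8.3% were lower in the main fit and 4.04%, 6.24%, 10.8%, 15.2% and 7.43% in these settings. Leaving out a library gave 3 to 25 higher and 0 to 2 lower, where 1.12% to 13% and 2.32% to 12.3% of all genes were. For WDR77KO, the 2 higher members became 1 with library totals, a minimum of 10 or the block and 4 with all libraries. Of all genes 0.838% were higher in the main fit and 0.76%, 1%, 0.519% and 2.89% in these settings. Leaving out a library gave 0 to 5 higher and 2 to 2 lower members, where 0.142% to 1.52% and 1.21% to 3.28% of all genes were. With sgPRMT5-1, the 5 higher became 3 with library totals, 16 with no filter, 22 with the block and 2 with all libraries. Of all genes 1.52% were higher in the main fit and 1.03%, 1.77%, 5.71% and 1.26% in these settings. Without a library 0 to 9 members were higher and 0 to 0 lower, where 0.558% to 1.32% and 0.933% to 2.29% of all genes were. With sgPRMT5-2, 25 to 30 were higher and 3 to 3 lower without a library, where 18.8% to 20.2% and 14% to 20.4% of all genes were. With sgWDR77-1, the 0 higher became 2 with no filter, 1 with the block and 4 with all libraries, where 0.749%, 1.21% and 3.58% of all genes were higher. The 1 lower became 2 with no filter and 4 with all libraries, where 1.15% and 5.9% of all genes were lower. Leaving out a library gave 0 to 5 and 0 to 1, where 0.00701% to 2.98% and 0.386% to 4.04% of all genes were. With sgWDR77-2, the 4 higher became 7 with no filter and 2 with the block, where 1.24% and 0.784% of all genes were higher. Without a library 2 to 6 members were higher and 2 to 2 lower, where 0.747% to 2.2% and 1.34% to 2.49% of all genes were. Between the PRMT5 sgRNAs, the 15 higher and 5 lower became 3 and 2 with all libraries, where 3.55% and 3.98% of all genes were. Without a library they became 5 to 20 and 2 to 6, where 5.02% to 16.9% and 5.05% to 16.7% of all genes were. Between the WDR77 sgRNAs, the 0 higher became 2 with no filter and 3 with all libraries, where 0.284% and 1.84% of all genes were higher. Without a library 0 to 1 members were higher and 0 to 0 lower, where 0% to 0.44% and 0% to 0.668% of all genes were. Between PRMT5KO and WDR77KO, the 11 higher became 7 with RLE scaling or the block and 5 with library totals, where 6.77%, 6.21% and 5.1% of all genes were. The 0 lower became 1 with all libraries, where 11.4% of all genes were lower. Leaving out a library gave 2 to 14 and 0 to 1, where 3.19% to 11.9% and 3.07% to 10.8% of all genes were.

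With library totals alone, sgPRMT5-2 had 2292 genes higher and 3517 lower in place of 2960 and 2733, and sgPRMT5-1 had 146 and 380 in place of 214 and 316. Low counts limit NUPR1 (0 to 10 reads a library), ALDH1L2 (10 to 63), ASNS (14 to 35) and SESN2 (14 to 59). For ASNS, 49.3% of the exonic bases are shared with a gene on the same strand, where reads may have been set aside as ambiguous.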

Other observations

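The chaperones and other genes of the unfolded protein response of the endoplasmic reticulum, governed by XBP1 and ATF6, were listed beside the ATF4 program. Of 22 such genes, 6 were higher in PRMT5KO, where 8.73% of all genes were higher, with a median log2 fold change of 0.09. Without sgNeg replicate 1 or 2, that share of all genes was 1.12% or 1.47%, and the 22 higher members of the ATF4 program became 3 or 6. How many of these chaperone and related genes were still called there is not given, so the 6 are not to be set against those shares. In WDR77KO 1 was higher and 1 lower, where 0.838% of all genes were higher and 2.55% lower, with a median of 0.14. With sgWDR77-2, 4 were higher and 1 lower, where 1.89% and 3.08% of all genes were. With sgWDR77-1 the counts were 0 and 0, where 1.04% and 1.67% of all genes were called. HYOU1, a chaperone of the lumen, was at 134, 113 and 140.4 CPM (sgNeg), 158, 176 and 183 (sgPRMT5-1), 184, 188 and 184 (sgPRMT5-2), 191, 153 and 154 (sgWDR77-1) and 193, 184 and 177 (sgWDR77-2). Every knockout library lay above sgNeg, with 0.46 ± 0.09 for PRMT5KO (adjusted p = 0.00563) against 0.44 ± 0.11 for WDR77KO (adjusted p = 0.0328). HSPA5, the main chaperone there, rose in PRMT5KO (0.45 ± 0.09, adjusted p = 0.00716) and lay at 0.31 ± 0.10 in WDR77KO (0.109). SDF2L1, which helps that chaperone, rose in PRMT5KO by 0.61 ± 0.14 (adjusted p = 0.0127). DNAJC3, which binds unfolded protein, was the gene lower in WDR77KO (-0.47 ± 0.11, adjusted p = 0.0277), and PRMT5KO exceeded WDR77KO by 0.36 ± 0.09 (adjusted p = 0.0159).

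Of 17 synthetases of mitochondria, SARS2 and VARS2 had 0 reads in every library. They share 48.2% and 63.0% of their exonic bases with a gene on the same strand, where reads may have been set aside as ambiguous. Of the 15 tested 2 (13.3%) were higher in PRMT5KO, where 8.73% of all genes were, with a median log2 fold change of 0.11. The 2 were NARS2 for asparagine (0.37 ± 0.08, adjusted p = 0.0127) and HARS2 for histidine (0.41 ± 0.12, adjusted p = 0.0317), while YARS2 for tyrosine lay at 0.38 ± 0.13 (adjusted p = 0.0679). With sgPRMT5-1 1 of the 15 was higher, where 1.52% of all genes were, and with sgPRMT5-2 6 were higher and 1 lower, where 20.9% of all genes were higher and 19.3% lower. In WDR77KO the median was 0.03, and NARS2 (0.21 ± 0.13), MARS2 for methionine (0.28 ± 0.18) and CARS2 for cysteine (-0.23 ± 0.15) had adjusted p of 0.475, 0.511 and 0.521.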
